A study of Mus musculus with 8 samples.

Results

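The respiratory chain genes of C3H10T1/2 cells were followed across both genomes that encode them, after exposure to sphingosine 1-phosphate (S1P, a lipid mediator of blood and tissues that acts through G protein-coupled receptors). Members were taken by symbol: names starting with Nduf, Uqcr, Atp5 or Cox4 to Cox8, the genes Sdha to Sdhd, and every name starting with mt-. This rule found 97 of the 18306 genes in the count table, 88 of them nuclear and 9 mitochondrially encoded. C3H10T1/2 is an established line of mouse embryo cells with mesenchymal properties, and all libraries come from this 1 line. S1P libraries (replicates 5 to 8) came from cells kept without serum for 24 h and then given 5 µM S1P for another 24 h, whereas vehicle libraries (replicates 1 to 4) came from cells with the same serum-free period that then received the carrier alone, 0.1% fatty acid-free bovine serum albumin. All 8 libraries are thus from serum-deprived cells.

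The respiratory chain sits in the inner mitochondrial membrane. Complex I (NADH dehydrogenase) and complex II (succinate dehydrogenase) pass electrons to ubiquinone, complex III hands them to cytochrome c, and complex IV (cytochrome c oxidase) gives them to oxygen. Complexes I, III and IV pump protons, and the gradient drives ATP synthase, or complex V. Most subunits are encoded in the nucleus and imported, while a small set of hydrophobic core subunits of complexes I, III, IV and V is encoded in mitochondrial DNA together with the ribosomal and transfer RNAs needed to translate them. Assembly of a complex therefore draws on products of both genomes.

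Each library held 13750303 to 13761544 counts, with at least 1 count for 14907 to 15384 genes. Values are given as CPM (counts scaled to a common library size), set by library total and a composition factor. The labelled cell type was checked first: all 10 mesenchymal markers looked for (among them Col1a1, Col1a2, Vim and Pdgfrb) were found, with a summed level of 24504 to 31625 CPM in S1P libraries and 27575 to 34105 CPM in vehicle libraries. Of 15 marker symbols of leukocyte, endothelial, epithelial, muscle and liver cells (Adgre1 and Emr1 name the same gene), 10 were found. They summed to 2.35 to 3.03 CPM in S1P libraries and 2.37 to 4.14 CPM in vehicle libraries, and all of them except Cdh1 and Cd68 stayed below 1 CPM in every library. Epcam, Krt8, Krt18 and Myod1 were not found under these symbols, so Cdh1 was the only epithelial marker with values. Vehicle replicate 4 stood apart from the other libraries, and the main results are given with and without it. Nothing in the labels states that each library is a culture of its own, and the p-values therefore reflect the spread of these 8 samples alone, which may be technical. In such bulk RNA, fewer cells of a kind and less RNA per cell cannot be told apart.

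After S1P, 2 subunits of cytochrome c oxidase rose, and no other respiratory chain gene passed the test. Of the 90 members with enough counts to be tested (81 nuclear and 9 mitochondrial), Cox5a and Ndufa4 rose and none fell (edgeR quasi-likelihood test, Benjamini-Hochberg adjusted p under 0.05 over all 11844 genes tested). These are 2 of 81 nuclear members, or 2.47%, beside 5.60% of all genes tested that rose and 2.90% that fell (8.50% in either direction). None of the 9 mitochondrial members passed in either direction. With no adjustment, at p under 0.05 by edgeR, 12 nuclear members were higher and 2 lower, beside 13.2% and 11.7% of all genes, and of the mitochondrial members 0 were higher and 1, mt-Rnr1, was lower. The other tools called more in places: DESeq2 called 6 nuclear members higher, 1 nuclear member (Ndufv3) lower and mt-Rnr1 lower, beside 8.16% of all genes higher and 6.79% lower by that tool. limma-voom called the same 2 nuclear members higher and nothing else among the 90, beside 5.99% and 2.87% of all genes.

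The median log2 fold change (S1P minus vehicle) was 0.05 over the nuclear members tested, 0.02 over the mitochondrial members and -0.04 over all genes tested. Among the nuclear members, 48 of 81 had a positive value, and among the mitochondrial members 5 of 9, beside 46.1% of all genes tested. Without vehicle replicate 4 the medians were 0.16 over nuclear members, -0.09 over mitochondrial members and 0.0045 over all genes tested. In that fit 63 of 81 nuclear and 2 of 9 mitochondrial members had a positive value. This difference between the genomes was not tested. The 95% interval of the fold change lay within 1.5-fold of no change for 52 of 81 nuclear and 5 of 9 mitochondrial members, beside 38.0% of all genes tested. For these members a change beyond 1.5-fold lay outside the interval, and for the others the interval reached past it.

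**Figure D1:**
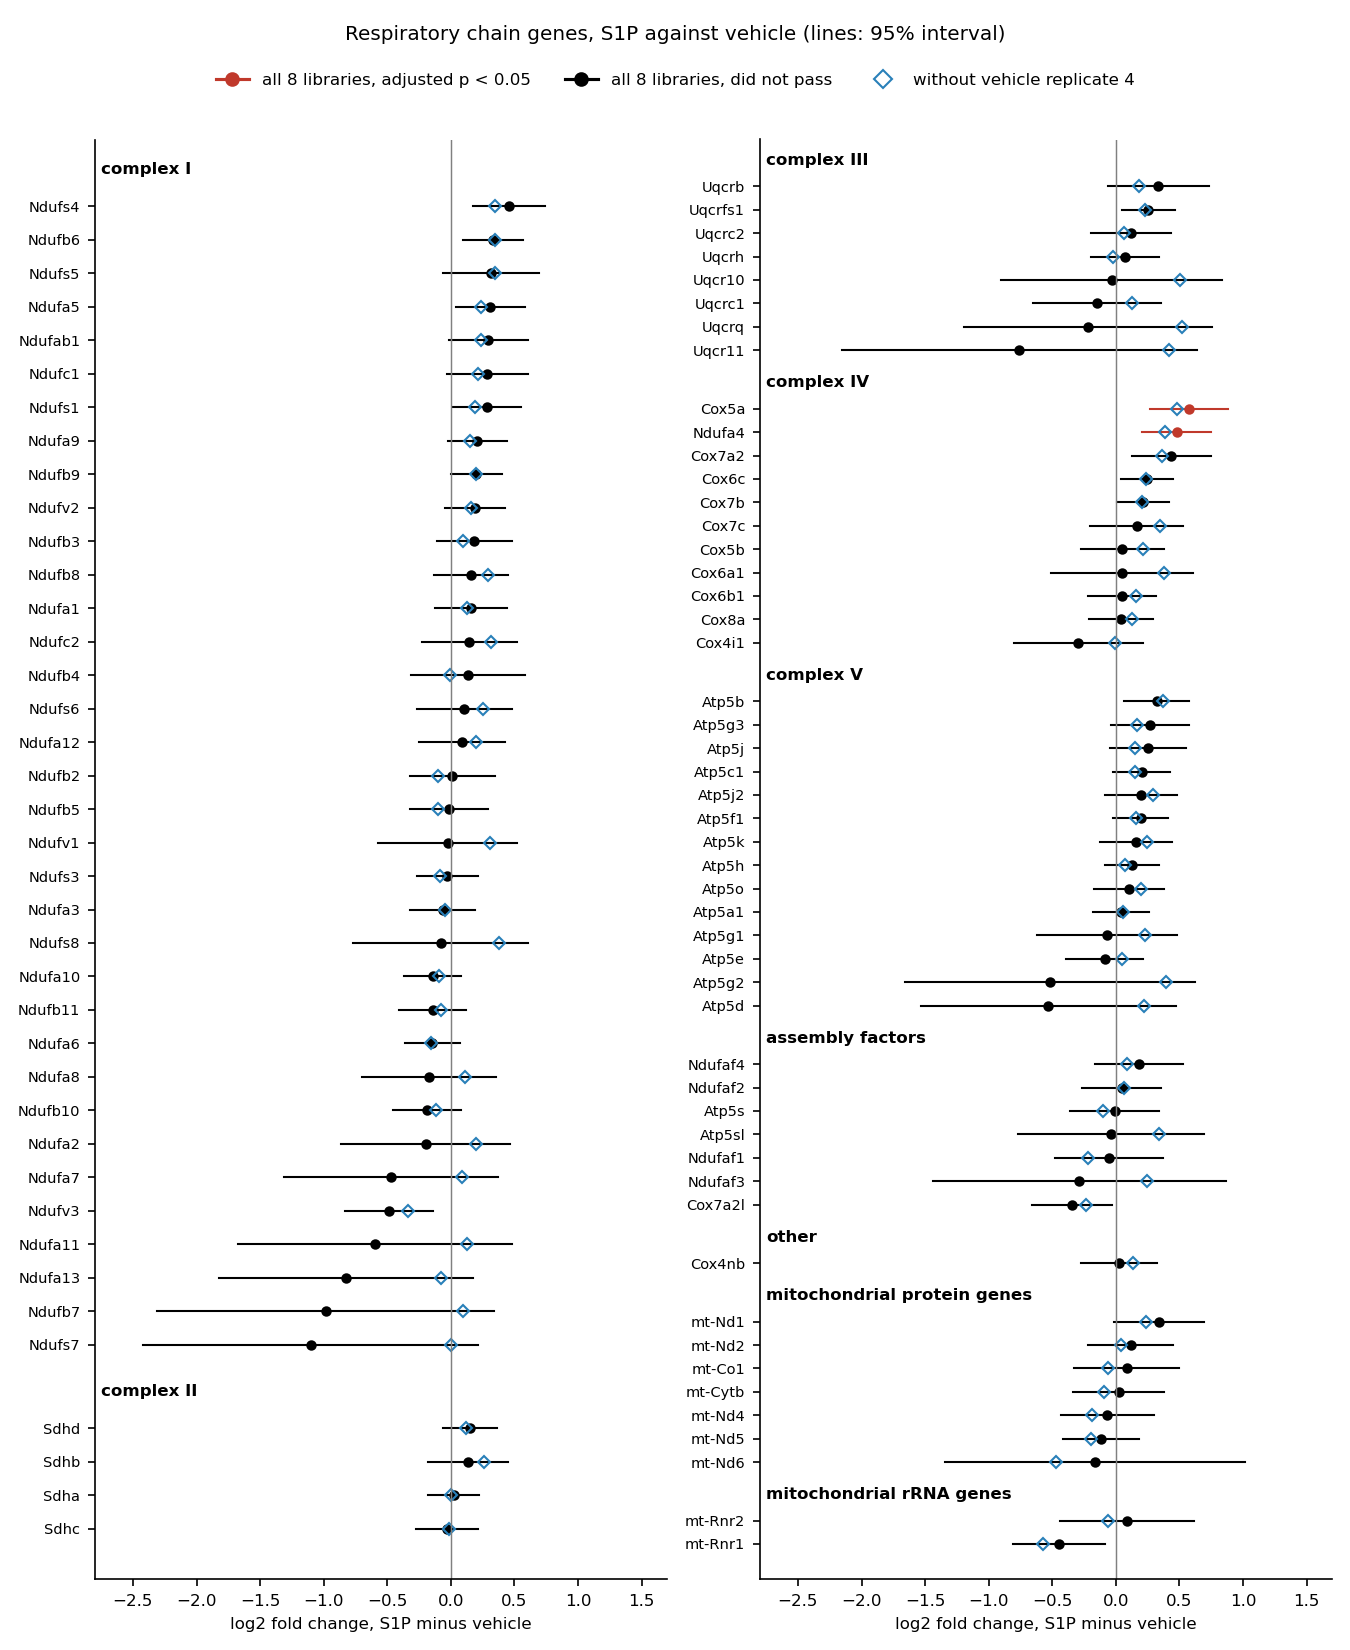
Log2 fold change, S1P minus vehicle, of 89 of the 90 members tested, grouped by complex, with 95% intervals for all 8 libraries (circles) and the value without vehicle replicate 4 (diamonds). Cox5a and Ndufa4 are the only members past the adjusted threshold, and the 3 widest intervals are those of Ndufs7, Ndufb7 and Uqcr11, whose values moved to near or above 0 without vehicle replicate 4.

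Complex IV held both members that rose. Cox5a encodes a subunit on the matrix side of cytochrome c oxidase (identifier ENSMUSG00000000088; chromosome 9, 57368839 to 57380431 in mm9). It had 67.3, 71.6, 68.4 and 69.3 CPM in S1P replicates 5 to 8, against 43.2, 51.1, 54.8 and 36.3 CPM in vehicle replicates 1 to 4. Every S1P library lay above every vehicle library, and the S1P libraries differed little from each other. The means were 69.1 ± 1.83 CPM with S1P and 46.3 ± 8.27 CPM with vehicle (SD, n = 4 each), a log2 fold change of 0.58 (SE 0.14, edgeR adjusted p = 0.031). Without vehicle replicate 4, the lowest of the 8, the log2 fold change was 0.48 (edgeR adjusted p = 0.013).

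Ndufa4 is named as a complex I subunit but is now placed in cytochrome c oxidase (identifier ENSMUSG00000029632; chromosome 6, 11850173 to 11857646 in mm9). Its values were 208, 190.3, 179.7 and 195 CPM in S1P replicates 5 to 8, against 143, 155, 145 and 112 CPM in vehicle replicates 1 to 4. The groups did not overlap, and vehicle replicate 4 was again the lowest library. The log2 fold change was 0.48 (SE 0.12, edgeR adjusted p = 0.040), and 0.39 without vehicle replicate 4 (edgeR adjusted p = 0.014). Both calls were close to the threshold when a library was left out. Cox5a lost its call without any one of S1P replicates 5 to 8 or vehicle replicates 1 and 2, and Ndufa4 without any one of these or vehicle replicate 3, with edgeR adjusted p-values of at most 0.103 for Cox5a and 0.114 for Ndufa4. The direction held for both in all 18 settings tried.

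The other 9 complex IV members tested did not pass, and 10 of all 11 had a positive log2 fold change. Cox7a2, a small subunit in its widely expressed form, had 134, 116, 99.7 and 110.2 CPM in S1P replicates 5 to 8, against 98.6, 92.5, 76.8 and 72.2 CPM in vehicle replicates 1 to 4. The lowest S1P library lay just above the highest vehicle library, and the log2 fold change was 0.44 (edgeR adjusted p = 0.085). Cox6c and Cox7b, further small nuclear subunits, averaged 102 ± 6.83 and 128 ± 5.44 CPM with S1P, against 86.1 ± 1.83 and 110.5 ± 5.17 CPM with vehicle (SD, n = 4 each). Their log2 fold changes were 0.24 and 0.21 (edgeR adjusted p = 0.138 and 0.181). Cox4i1, the main form of the subunit thought to regulate the oxidase, went the other way over all 8 libraries with a log2 fold change of -0.30 (edgeR adjusted p = 0.440), but its vehicle replicate 4 held 279.7 CPM where the other vehicle libraries held 128 to 162 CPM. Without that library its value was -0.0043.

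In 5 of the 11 complex IV members tested, every S1P library was above every vehicle library. Over all genes tested this held for 11.9%, and the reverse order for 7.21%. Among the 81 nuclear members as a whole, 16 had all S1P libraries above and 2 had them all below. With vehicle replicate 4 set aside, S1P lay above without overlap in 10 of the 11 complex IV members and 30 of the 81 nuclear members, beside 16.9% of all genes, and below in 3 nuclear members, beside 12.1%. The summed level of the complex IV members was 1017 to 1149 CPM in S1P libraries and 899 to 1107 CPM in vehicle libraries. The top of the vehicle range was vehicle replicate 4, and vehicle replicates 1 to 3 reached 938 CPM.

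**Figure D2:**
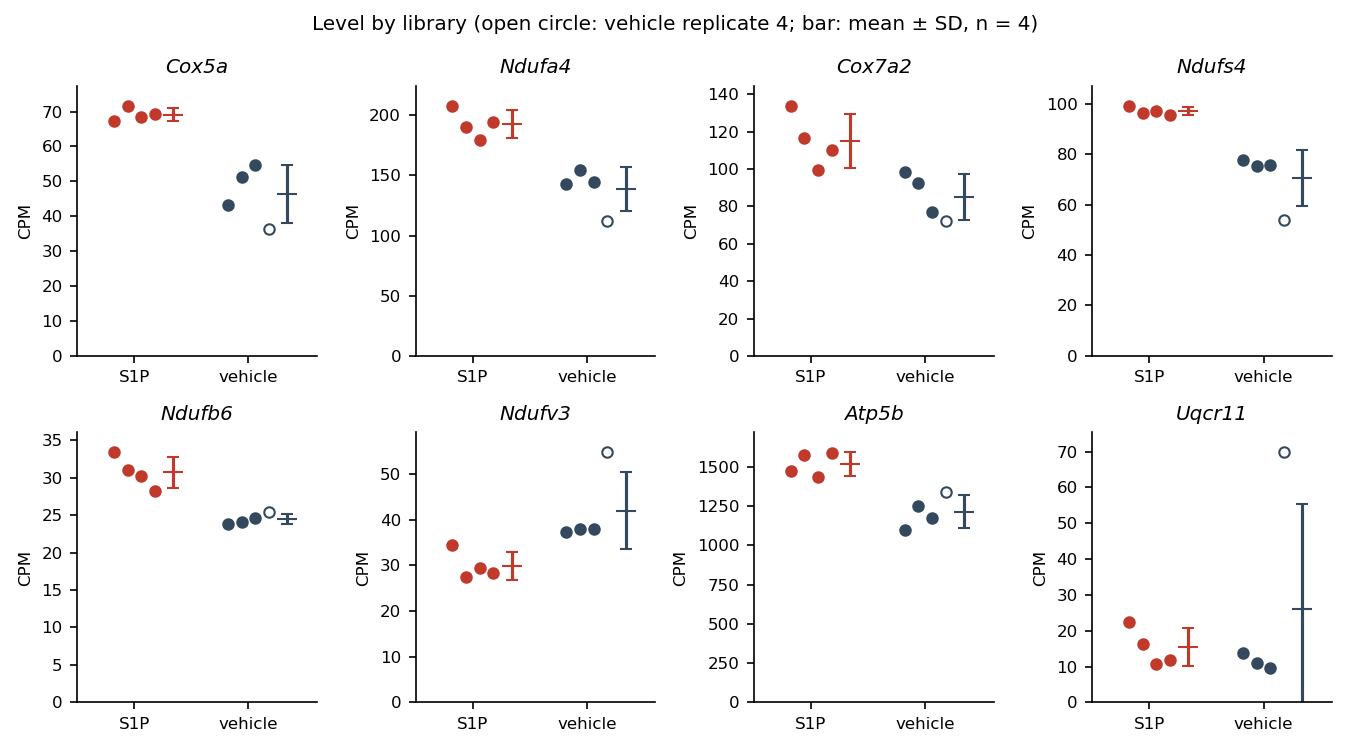
CPM of 8 members in each library, S1P replicates 5 to 8 and vehicle replicates 1 to 4 from left to right, with vehicle replicate 4 as an open circle and the mean ± SD (n = 4) as a bar, which for Uqcr11 vehicle is drawn down to 0 only. Cox5a, Ndufa4, Cox7a2, Ndufs4, Ndufb6 and Atp5b have all S1P libraries above the vehicle libraries, Ndufv3 has them all below, and Uqcr11 shows 1 vehicle library at 69.7 CPM beside 9.62 to 13.9 CPM in the other 3.

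To show the promoters behind the 2 members that rose and the nuclear member with the highest level per transcript length, Atp5b, the 250 bases before each RefSeq start are printed here 5′ to 3′ in the direction of transcription (RefSeq, GRCm38.p6). Capitals mark matches on either strand to the cores TGCGCA (nuclear respiratory factor 1), CCGGAAG (the ETS family, which holds GABP), AAGATGG (YY1) or CCAAT (the CCAAT box). The first 3 are motifs of factors that textbooks tie to nuclear respiratory genes.
Cox5a promoter, chr9:57520982-57521231, plus strand: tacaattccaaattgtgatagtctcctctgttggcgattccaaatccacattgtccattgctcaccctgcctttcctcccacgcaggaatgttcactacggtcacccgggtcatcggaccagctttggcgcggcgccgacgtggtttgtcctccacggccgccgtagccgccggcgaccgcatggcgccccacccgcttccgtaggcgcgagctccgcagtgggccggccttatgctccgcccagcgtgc
Ndufa4 promoter, chr6:11907451-11907700, minus strand: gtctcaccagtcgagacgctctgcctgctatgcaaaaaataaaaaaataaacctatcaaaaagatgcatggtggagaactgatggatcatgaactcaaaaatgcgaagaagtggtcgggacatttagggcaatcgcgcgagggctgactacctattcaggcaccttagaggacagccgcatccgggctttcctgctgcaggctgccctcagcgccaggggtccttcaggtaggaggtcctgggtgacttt
Atp5b promoter, chr10:128083057-128083306, plus strand: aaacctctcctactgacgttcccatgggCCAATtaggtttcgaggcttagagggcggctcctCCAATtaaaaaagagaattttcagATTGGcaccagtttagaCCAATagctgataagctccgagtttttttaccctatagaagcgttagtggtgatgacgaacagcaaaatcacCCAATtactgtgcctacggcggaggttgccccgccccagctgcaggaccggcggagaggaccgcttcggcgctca

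None of the 4 cores is in the Cox5a or Ndufa4 window, and the Atp5b window holds 5 CCAAT cores, which says nothing about binding of a factor. RefSeq promoters of 300 bases (250 before and 50 after the start) were found for 67 of the 81 nuclear members tested, 73 promoters in all. The nuclear respiratory factor 1 core was in 24.7% of them, beside 13.8% of the promoters of all genes tested and 7.76% of all promoters in the table. The YY1 core was in 16.4%, beside 7.14% and 6.34%. The ETS core was in 21.9%, beside 17.8% and 8.86%, and the CCAAT core in 41.1%, beside 38.1% and 37.4%. These shares describe the letters alone and were not tested, and motif matches of different kinds may overlap.

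Complex I, the largest group with 36 tested members, had none past the threshold, with a median log2 fold change of -0.0015 and 18 positive values. Ndufs4, an accessory subunit needed for late steps of complex I assembly (chromosome 13, 115077803 to 115178502 in mm9), came nearest. It had 99.0, 96.2, 97.0 and 95.4 CPM in S1P replicates 5 to 8, against 77.5, 75.4, 75.5 and 53.8 CPM in vehicle replicates 1 to 4. The groups did not overlap, and vehicle replicate 4 was the lowest library. The log2 fold change was 0.46 (SE 0.13, edgeR adjusted p = 0.056), and without vehicle replicate 4 it was 0.35 and passed (edgeR adjusted p = 0.011).

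Ndufb6, an accessory subunit of the membrane arm, had 33.4, 31.0, 30.3 and 28.2 CPM in S1P replicates 5 to 8, against 23.9, 24.0, 24.6 and 25.4 CPM in vehicle replicates 1 to 4. All S1P libraries were higher, here with vehicle replicate 4 near its group, and the log2 fold change was 0.33 (edgeR adjusted p = 0.089, and 0.032 without vehicle replicate 4). The span of Ndufb6 overlaps that of another tested gene, 2010003O02Rik. Ndufv3, a subunit of the NADH-oxidising module, was the opposite case, with 34.4, 27.5, 29.4 and 28.4 CPM in S1P replicates 5 to 8, against 37.4, 37.9, 38.0 and 54.7 CPM in vehicle replicates 1 to 4. Every S1P library was lower, and the log2 fold change was -0.49 (edgeR adjusted p = 0.086, and 0.051 without vehicle replicate 4).

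Ndufs1, the large iron-sulfur core subunit, had 125 to 139 CPM in S1P libraries and 86.0 to 116 CPM in vehicle libraries, without overlap (log2 fold change 0.28, edgeR adjusted p = 0.181). In all, S1P lay above vehicle without overlap in 6 of the 36 complex I members (16.7%) and below in 2 (5.56%), Ndufv3 and Ndufa6. Over all genes tested these shares were 11.9% and 7.21%. The lowest values of the complex, -1.10 for Ndufs7, -0.98 for Ndufb7 and -0.82 for Ndufa13, went with vehicle replicate 4. Ndufs7, the core subunit that holds the last iron-sulfur cluster before the quinone, had 6.32 to 10.8 CPM in S1P libraries, against 8.24 to 9.38 CPM in vehicle replicates 1 to 3 and 48.5 CPM in vehicle replicate 4. Without that library its log2 fold change was 0.0013.

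Complexes II and III showed no member past the threshold. All 4 subunits of complex II, the only complex made by the nucleus alone, were tested, and all 4 had 95% intervals within 1.5-fold. Sdha, its flavoprotein, averaged 253 ± 7.09 CPM with S1P and 249.6 ± 10.5 CPM with vehicle (SD, n = 4 each), a log2 fold change of 0.02 with a 95% interval of -0.18 to 0.22. Sdhd, a membrane anchor, averaged 119 ± 6.04 CPM with S1P and 107 ± 6.45 CPM with vehicle (log2 fold change 0.15, edgeR adjusted p = 0.350). In complex III, Uqcrh, the hinge subunit, averaged 297 ± 5.00 CPM with S1P and 283 ± 38.4 CPM with vehicle (SD, n = 4 each; log2 fold change 0.07). The core subunit Uqcrc2 averaged 165 ± 19.5 CPM with S1P and 152 ± 23.6 CPM with vehicle (log2 fold change 0.12). Uqcrfs1, the Rieske iron-sulfur protein, was the only complex III member whose groups did not overlap, with 83.2 to 88.7 CPM in S1P libraries and 67.6 to 79.1 CPM in vehicle libraries (log2 fold change 0.26, edgeR adjusted p = 0.124). The small subunit Uqcr11 had the lowest value of the complex, -0.76 (SE 0.62), which became 0.42 without vehicle replicate 4.

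Complex V had no member past the threshold. All complex V members, with the untested Atp5l and Atp5l2 included, summed to 3501, 3593, 3356 and 3582 CPM in S1P replicates 5 to 8, against 2866.5, 3159, 2955 and 3269.8 CPM in vehicle replicates 1 to 4. Every S1P sum lay above every vehicle sum, and 10 of the 14 members tested had a positive log2 fold change (median 0.14). Much of this sum was Atp5b, the catalytic beta subunit (chromosome 10, 127520129 to 127527647 in mm9). Atp5b had 1473, 1573, 1433 and 1585 CPM in S1P replicates 5 to 8, against 1096, 1249, 1173 and 1339 CPM in vehicle replicates 1 to 4. With Atp5b taken out, the sum of S1P replicate 7 falls below that of vehicle replicate 4, so the groups then overlap.

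All S1P libraries were higher for Atp5b, with means of 1516 ± 74.7 CPM with S1P and 1214 ± 104 CPM with vehicle (SD, n = 4 each; log2 fold change 0.32, edgeR adjusted p = 0.116). Without vehicle replicate 4 the value was 0.37 and passed (edgeR adjusted p = 0.039). Its span still overlaps Baz2a after 200 bases are taken off each end. Atp5a1, the alpha subunit that surrounds the catalytic sites together with beta, averaged 598 ± 18.7 CPM with S1P and 581 ± 33.5 CPM with vehicle, a log2 fold change of 0.04 with a 95% interval of -0.18 to 0.26. The gamma subunit Atp5c1 and the stalk subunits Atp5f1 and Atp5h also had S1P above vehicle without overlap, with log2 fold changes of 0.20, 0.20 and 0.13, and did not pass (edgeR adjusted p = 0.238 to 0.438). Atp5h has look-alike transcripts from pseudogenes.

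The 3 genes for the membrane c-ring, Atp5g1, Atp5g2 and Atp5g3, encode the same mature protein with different import signals. Per transcript length Atp5g3 was the highest of them, at 284 CPM per kb with S1P and 235 CPM per kb with vehicle. Atp5g2 and Atp5g1 had 19.3 and 6.47 CPM per kb with S1P. The length used is that of the longest protein-coding transcript, 4715 bases for Atp5g1 but 753 for Atp5g2 and 723 for Atp5g3. The order of Atp5g2 and Atp5g1 rests on this choice, as Atp5g1 was above Atp5g2 by mean CPM. Atp5g3 averaged 205 ± 18.4 CPM with S1P and 170.1 ± 27.3 CPM with vehicle (SD, n = 4 each; log2 fold change 0.27, edgeR adjusted p = 0.256). Atp5g1 averaged 30.5 ± 5.09 CPM with S1P and 32.0 ± 12.2 CPM with vehicle. Atp5g2 averaged 14.6 ± 2.27 CPM with S1P and 20.9 ± 19.6 CPM with vehicle, where a single library, vehicle replicate 4 at 50.2 CPM, carried most of the vehicle mean.

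Where subunits exist as tissue forms and the other form was in the count table, these cells held the widely expressed one. Cox6a1, Cox6b1, Cox7a2 and Cox8a each averaged 58.4 CPM or more with S1P and 56.5 CPM or more with vehicle. Cox6b2, Cox8b and Cox8c were not found under these symbols, so Cox6b1 and Cox8a could not be set beside their other forms. Cox6a2 and Cox7a1, the heart and muscle forms, Cox4i2, the lung form, Cox7b2 and Ndufa4l2 had no library above 0.284 CPM and were not tested, with means of at most 0.073 CPM with S1P and 0.163 CPM with vehicle. A gene with a count of 0 could lie as high as 3 counts by counting error, which is 0.213 to 0.223 CPM in these libraries. Atp5l (a membrane subunit of complex V) and Atp5l2 also stayed below the filter. Atp5l had 1 to 4 counts per library, and 9 transcripts of other genes match it closely, so its level is uncertain.

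Among 7 assembly factors caught by the symbol rule, none passed. Cox7a2l, which joins complexes III and IV into supercomplexes, had 58.8 to 71.9 CPM in S1P libraries and 67.7 to 102.9 CPM in vehicle libraries, with overlap (log2 fold change -0.35, edgeR adjusted p = 0.170). Ndufaf4, a complex I assembly factor, averaged 27.2 ± 2.12 CPM with S1P and 24.0 ± 4.59 CPM with vehicle (SD, n = 4 each; log2 fold change 0.18, edgeR adjusted p = 0.487). The symbol rule also takes Cox4nb, whose current symbol is Emc8 and which is a subunit of an endoplasmic reticulum membrane complex. It averaged a log2 fold change of 0.03.

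The spread among nuclear members went with vehicle replicate 4, whose deviation followed GC content. The median coefficient of variation of CPM over the 81 members was 7.62% in the S1P libraries, against 15.9% in the 4 vehicle libraries and 7.02% in vehicle replicates 1 to 3. In 16 of the 81 nuclear members tested its CPM was at least 2-fold above the mean of vehicle replicates 1 to 3, up to 6.05-fold for Uqcr11, 5.61-fold for Ndufs7 and 5.46-fold for Ndufb7. It was the highest or lowest of the 8 libraries in 65 of the 81, beside 61.5% of all genes tested. Across the 81 members the log2 ratio of vehicle replicate 4 to the other vehicle libraries correlated with transcript GC content at r = 0.68 (Spearman rho 0.65), and across 11634 genes tested at 0.77, as a description of values that share 1 library. Other libraries also deviated with GC content. Against the mean of all 8 libraries, r over the 81 members was -0.06, -0.23, -0.67 and -0.49 in S1P replicates 5 to 8. It was -0.01, -0.33, -0.61 and 0.70 in vehicle replicates 1 to 4. That mean includes vehicle replicate 4, so these values depend on each other.

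By GC content, the 12 members below 45% had a median ratio of 0.756 and a median log2 fold change, S1P minus vehicle, of 0.19. The 19 members at or above 55% had a median ratio of 2.79 and a median log2 fold change of -0.30. Without vehicle replicate 4 the median log2 fold changes were 0.17 and 0.13, and 15 of these 19 were positive, against 4 of 19 with it. Leaving it out turned the sign of 21 nuclear members, 18 of them to positive. The median over nuclear members was then 0.16, beside 0.0045 over all genes tested, and 8 members were called higher (Atp5b, Cox5a, Cox7c, Ndufa4, Ndufb6, Ndufb8, Ndufs4 and Uqcrq) and none lower, which is 8 of 81 beside 9.49% of all genes higher and 6.05% lower in that fit. What set this library apart was not tested.

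**Figure D3:**
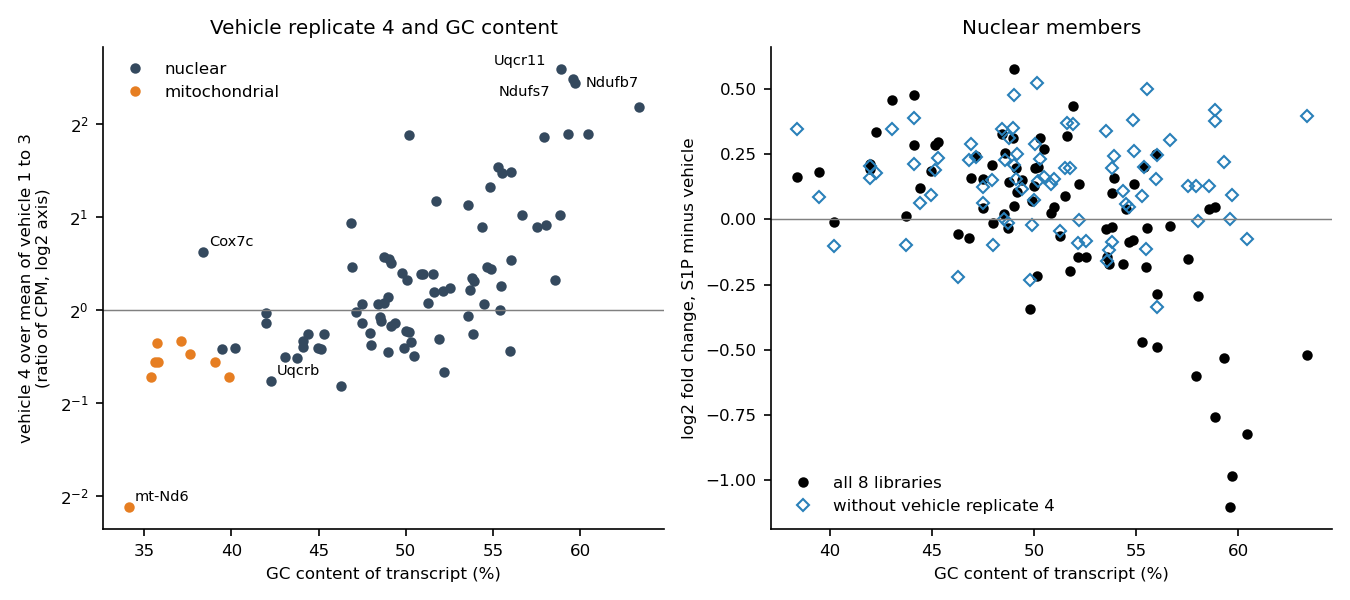
Left, ratio of CPM in vehicle replicate 4 to the mean of vehicle replicates 1 to 3 (log2 axis) against transcript GC content for 81 nuclear and 9 mitochondrial members. Right, log2 fold change, S1P minus vehicle, of the nuclear members against GC content with all 8 libraries (circles) and without vehicle replicate 4 (diamonds): the low values at high GC content, down to -1.10, are seen only with that library.

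None of the 9 mitochondrially encoded members passed in either direction, and their levels differed widely. The symbol rule found no others: these 9 are 7 protein genes and 2 ribosomal RNA genes. No transfer RNA gene and no mitochondrially encoded subunit of complex V is among them. All shares and ratios of mitochondrial counts given here therefore cover these 9 members and not the whole output of mitochondrial DNA. Per transcript length, mt-Co1, the catalytic core of complex IV, reached 9993 CPM per kb with S1P and 9420 CPM per kb with vehicle, while the highest nuclear member, Atp5b, reached 791 CPM per kb with S1P and 634 CPM per kb with vehicle. The 7 mitochondrial protein genes had a median level of 1945 CPM per kb with S1P and 1805 CPM per kb with vehicle. The lowest of them was mt-Nd6, the complex I subunit encoded on the other strand, at 22.8 CPM per kb with S1P and 25.6 CPM per kb with vehicle, and its span lies partly over mt-Nd5. The counting is labelled sense in the deposited data without further detail, so how reads of the 2 strands were split there is not known.

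mt-Co1 (chromosome M, 5128 to 7072 in mm9) had 16052, 15024, 16135 and 14546 CPM in S1P replicates 5 to 8, against 16189, 16441, 15772 and 9816 CPM in vehicle replicates 1 to 4. Vehicle replicate 4 alone was low, and the other libraries overlapped (log2 fold change 0.09, edgeR adjusted p = 0.797). With that library left out the log2 fold change was -0.06 (edgeR adjusted p = 0.787). mt-Nd1, a complex I core subunit, had 5316, 4834, 5671 and 4787 CPM in S1P replicates 5 to 8, against 3943.5, 4293, 4910 and 3162 CPM in vehicle replicates 1 to 4. Only vehicle replicate 3 reached into the S1P range, and the log2 fold change was 0.34 (SE 0.16, edgeR adjusted p = 0.220), or 0.23 without vehicle replicate 4 (edgeR adjusted p = 0.266). The mitochondrial members without such a split, mt-Nd2, mt-Nd4, mt-Nd5 and mt-Cytb (subunits of complex I and, for mt-Cytb, of complex III), had log2 fold changes of 0.12, -0.07, -0.12 and 0.02. Without vehicle replicate 4 these were 0.04, -0.19, -0.19 and -0.09. Vehicle replicate 4 was the lowest of the 8 libraries in 8 of the 9 mitochondrial members, whose transcripts have a GC content of 34.1% to 39.9%.

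mt-Rnr1, the RNA of the small mitochondrial ribosomal subunit (chromosome M, 1 to 1224 in mm9), was the mitochondrial member nearest to a call. It had 128, 110.5, 154 and 126 CPM in S1P replicates 5 to 8, against 208, 187, 181 and 130.0 CPM in vehicle replicates 1 to 4. Vehicle replicates 1 to 3 were above all S1P libraries and vehicle replicate 4 fell among them. The log2 fold change was -0.45 (SE 0.16, edgeR adjusted p = 0.122), and without vehicle replicate 4 it was -0.57 and passed (edgeR adjusted p = 0.014). The RNA of the large subunit, mt-Rnr2, averaged 449 ± 121 CPM with S1P and 422 ± 109 CPM with vehicle (SD, n = 4 each; log2 fold change 0.09, and -0.06 without vehicle replicate 4). Ribosomal RNA can be reduced during library preparation, and what was done here is not given in the sources used here.

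Shares of the mitochondrial counts of the same library take out the summed mitochondrial level of vehicle replicate 4, but not its other deviations. By share, 3 of the 9 members had groups that did not overlap. By CPM this held for 0 of the 9, beside 11.9% of all genes higher and 7.21% lower. No such background is given for the shares. Vehicle replicate 4 still had the lowest share of mt-Co1 and mt-Nd6 among the 8 libraries, and the highest share of mt-Nd2 and mt-Nd5. mt-Nd1 made up 14.2%, 14.0%, 14.8% and 14.0% of the mitochondrial counts in S1P replicates 5 to 8, against 10.9%, 11.6%, 12.6% and 12.6% in vehicle replicates 1 to 4. mt-Rnr1 made up 0.341%, 0.320%, 0.400% and 0.368% in S1P replicates 5 to 8, against 0.577%, 0.504%, 0.466% and 0.520% in vehicle replicates 1 to 4. In the shares of mt-Nd1 and mt-Rnr1, vehicle replicate 4 lay within or beside its group. mt-Nd1 was higher with S1P and mt-Rnr1 lower. mt-Nd4 made up 5.58% to 6.34% in S1P libraries and 6.42% to 7.04% in vehicle libraries, the gap being narrow. The shares of the other 6 overlapped, and the largest share, mt-Co1, was 42.7 ± 0.62% with S1P and 42.2 ± 2.80% with vehicle (SD, n = 4 each). The ratio of mt-Rnr1 to mt-Rnr2 was 0.251 to 0.341 in S1P libraries and 0.331 to 0.465 in vehicle libraries, overlapping through vehicle replicate 3. Shares within 1 library depend on each other, and these were not tested.

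**Figure D4:**
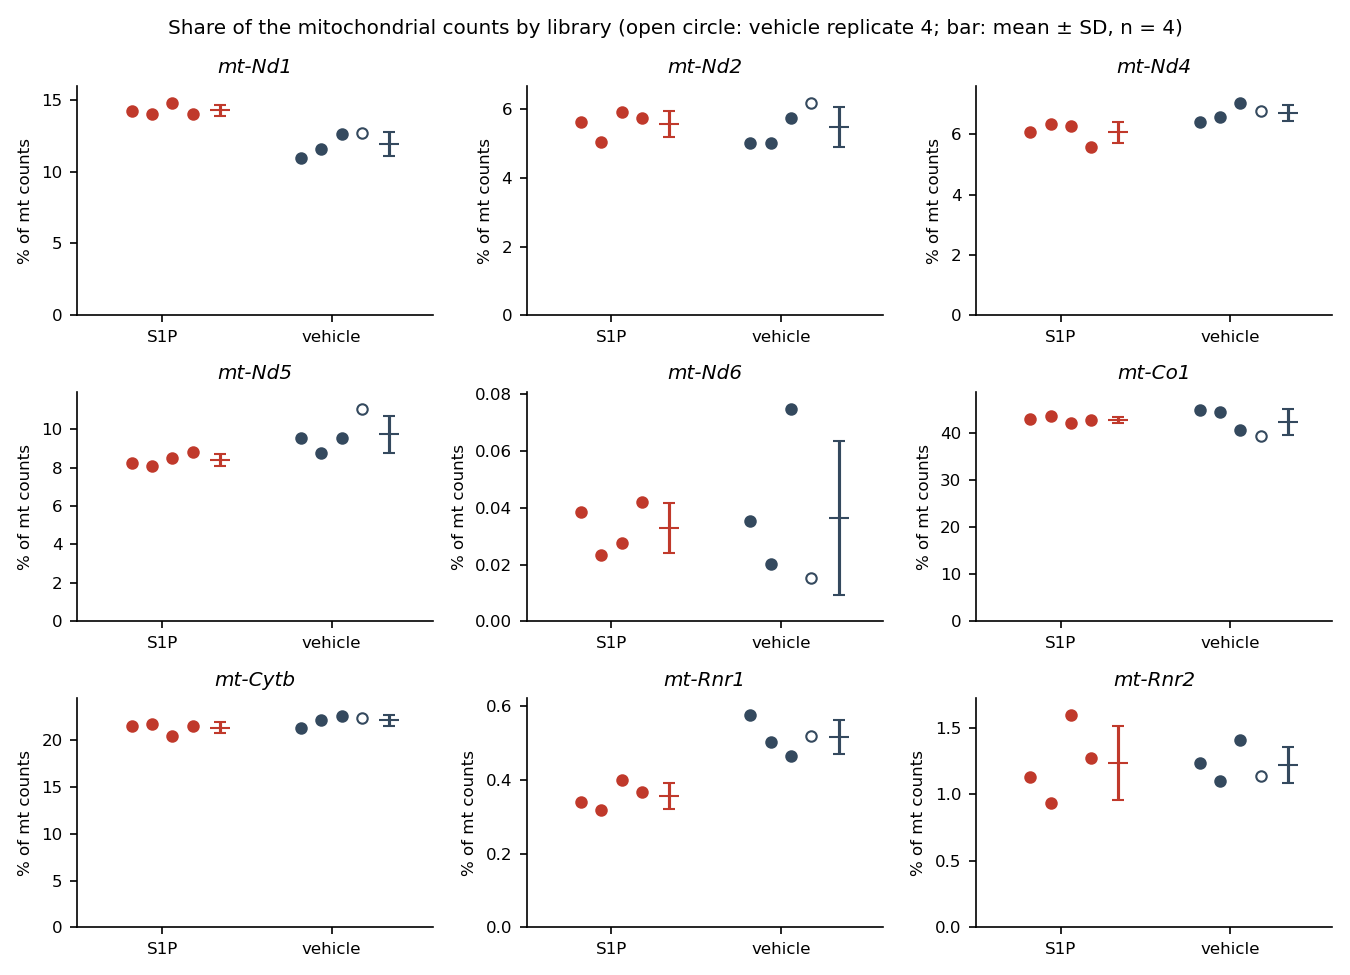
Share of each mitochondrially encoded member in the mitochondrial counts of its library, in percent, for S1P replicates 5 to 8 and vehicle replicates 1 to 4 from left to right, with vehicle replicate 4 open and the mean ± SD (n = 4) as a bar. mt-Nd1 lies higher in all S1P libraries, mt-Rnr1 and mt-Nd4 lie lower, and the other 6 overlap.

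Set beside each other, the summed counts of the members from the 2 genomes overlapped between S1P and vehicle libraries. Mitochondrial members took 3.77%, 3.45%, 3.80% and 3.45% of the counts in S1P replicates 5 to 8, against 3.69%, 3.63%, 3.83% and 2.504% in vehicle replicates 1 to 4. Nuclear members took 0.789%, 0.779%, 0.733% and 0.790% in S1P replicates 5 to 8, against 0.690%, 0.703%, 0.662% and 0.773% in vehicle replicates 1 to 4. For the mitochondrial share the S1P libraries lay inside the vehicle range, and for the nuclear share S1P replicate 7 lay below vehicle replicate 4 alone. The ratio of mitochondrial to nuclear counts was 4.69 ± 0.377 with S1P and 4.88 ± 1.13 with vehicle (SD, n = 4 each). S1P libraries ran from 4.37 to 5.19, vehicle replicates 1 to 3 from 5.17 to 5.78, and vehicle replicate 4 was at 3.24. With vehicle replicate 4 set aside the vehicle mean was 5.43 ± 0.314 (SD, n = 3), and S1P replicate 7 still lay above vehicle replicate 2.

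**Figure D5:**
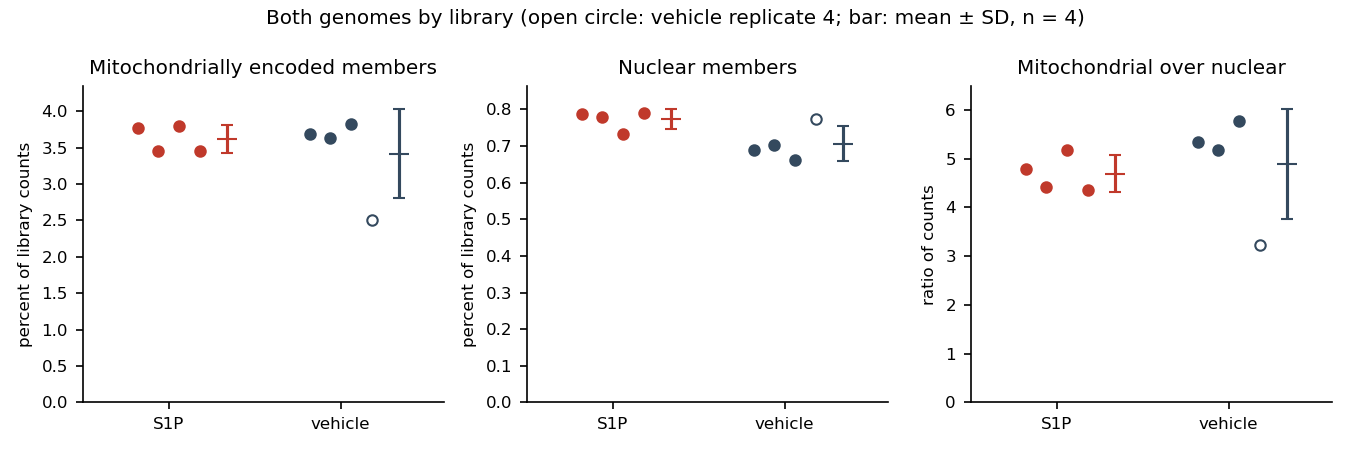
Percent of library counts from the mitochondrially encoded members (left) and the nuclear members (middle), and their ratio (right), for S1P replicates 5 to 8 and vehicle replicates 1 to 4, with vehicle replicate 4 open and the mean ± SD (n = 4) as a bar. The groups overlap in all 3 panels, and vehicle replicate 4 has the lowest mitochondrial share, 2.504%, and the lowest ratio, 3.24.

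Genes that build, feed or translate the chain were looked at in 10 lists (assembly factors outside the symbol rule, further subunits and cytochrome c, mitochondrial DNA transcription, RNA processing, biogenesis regulators, citric acid cycle, carriers, cristae, mitochondrial ribosome and protein import). Of their 245 tested genes 4 rose and none fell, or 1.63% beside the 5.60% of all genes that rose. Without vehicle replicate 4, 16 were called higher and 3 lower (Nfe2l2, Pdk2 and Polg2), beside 9.49% and 6.05% of all genes, and without S1P replicate 6, 7 or 8 none was called in either direction. With no adjustment, at p under 0.05 by edgeR, the mitochondrial ribosome list had 14 of 75 genes higher and 1 lower, and the import list 5 of 29 higher and 0 lower, beside the 13.2% and 11.7% of all genes. Tfb1m, which methylates the small mitochondrial ribosomal RNA encoded by mt-Rnr1, had 9.82, 13.7, 11.8 and 13.1 CPM in S1P replicates 5 to 8, against 4.55, 7.94, 6.44 and 5.16 CPM in vehicle replicates 1 to 4. The S1P libraries were all higher, a 2.01-fold ratio of means (log2 fold change 1.01, SE 0.22, edgeR adjusted p = 0.021). Tfb1m kept its call without any one of vehicle replicates 1 to 4 or S1P replicate 5 and lost it without S1P replicate 6, 7 or 8.

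Mrpl13 and Mrpl33, proteins of the large mitochondrial ribosomal subunit, rose with log2 fold changes of 0.59 and 0.55 (edgeR adjusted p = 0.027 and 0.041). Mrpl13 averaged 62.7 ± 4.20 CPM with S1P and 41.8 ± 6.42 CPM with vehicle, and Mrpl33 averaged 72.7 ± 4.07 CPM with S1P and 49.6 ± 8.57 CPM with vehicle (SD, n = 4 each). Hspa9, the matrix chaperone that pulls imported proteins across the inner membrane, averaged 669 ± 88.1 CPM with S1P and 435 ± 77.8 CPM with vehicle (log2 fold change 0.62, edgeR adjusted p = 0.045). Their calls were lost in most fits with a library left out, and all 3 held without vehicle replicate 4.

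In the other 7 lists no gene passed, among them the citric acid cycle (21 tested, median log2 fold change 0.02), the biogenesis regulators (13 tested, median 0.05) and mitochondrial RNA processing (20 tested, median 0.09). The 2 genes with the highest mean CPM in each of these lists had overlapping groups, except for Immt. Immt, the core of the complex that shapes cristae, averaged 216 ± 9.66 CPM with S1P and 173 ± 22.9 CPM with vehicle (SD, n = 4 each), with every S1P library higher (log2 fold change 0.32, edgeR adjusted p = 0.126). Nfe2l2, a transcription factor of the antioxidant response, averaged 366 ± 70.4 CPM with S1P and 468 ± 92.8 CPM with vehicle, a log2 fold change of -0.35 (edgeR adjusted p = 0.266) that was -0.49 and passed without vehicle replicate 4 (edgeR adjusted p = 0.047). Citrate synthase, Cs, which opens the citric acid cycle, averaged 371 ± 25.8 CPM with S1P and 311 ± 27.2 CPM with vehicle (log2 fold change 0.25, edgeR adjusted p = 0.184), while Pdha1, a subunit of pyruvate dehydrogenase, averaged 346 ± 5.89 CPM with S1P and 366 ± 21.3 CPM with vehicle (log2 fold change -0.08). The log2 fold changes of the assembly factors Sdhaf2 and Tmem70 were 0.05 and 0.22, and those of the electron carrier subunit Etfa and of Chchd2 were -0.03 and 0.16. For the RNA-binding proteins Grsf1 and Lrpprc they were 0.14 and 0.04, for the transcriptional cofactor Hcfc1 -0.0028, for the phosphate carrier Slc25a3 and the adenine nucleotide carrier Slc25a4 0.13 and 0.04, and for the inner membrane protease Yme1l1 0.21.

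Counts of some members may hold reads of neighbours or copies. The spans in the deposited table are 400 bases longer than the GENCODE M21 gene for 58 of the 97 members, among them 8 of the 9 mitochondrial ones. With 200 bases taken off each end of every gene, padded or not, 15 nuclear and 2 mitochondrial members still overlap another tested gene. Besides Atp5b and Ndufb6 these include Ndufs1 (Gm11602), Atp5f1 (Wdr77) and Cox6c (Vps13b). How reads in overlaps were assigned is not given in the sources used here. Transcripts of other genes matched 11 members at 95% identity or more over at least 50% of their length. The only such gene that was itself tested, Gm13340, a copy of mt-Co1 in the nuclear genome, had counts of 0.016% to 0.026% of those of mt-Co1 in S1P libraries and 0.013% to 0.021% in vehicle libraries.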

How the data were processed

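RNA was sequenced from 4 S1P and 4 vehicle samples, grouped by the treatment label. The authors deposited whole-number counts per Ensembl gene with symbols and mm9 spans. STAR 2.5.3a and mm9 are named, per the submitters' processing notes; counter, annotation and strand setting are not stated there. The column totals are nearly equal, so the depth before any reduction to a common size is unknown.

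Members follow the symbol rule. Members, lists and naming rule were chosen with earlier results of these data known. The named genes are the mitochondrial members, per complex the called members (up to 4) and the 2 with the highest CPM, tissue forms of subunits, up to 4 uncalled members whose groups do not overlap, and per list up to 3 called genes or the 2 highest. Other members named were chosen after their values were seen. The values of 1 member that the rule takes are left out.

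Genes were filtered with filterByExpr (minimum count 10), scaled with TMM factors and tested over all 11844 genes with edgeR 4.0.16 (robust quasi-likelihood, R 4.3.3), with treatment as the only term and Benjamini-Hochberg adjustment at 0.05. DESeq2 1.42.0, limma-voom (limma 3.58.1), 1 surrogate variable (sva 3.50.0), other scalings and filters, and fits with libraries left out were alternatives. Offsets for transcript GC content and length were added after the data had been seen. The script was tested on simulated counts, where it recovered 8% of genes changed 1.5-fold, 62% changed 2-fold and 90% changed 4-fold. Of its calls there, 7.25% were false. A gene that did not pass may therefore still have changed, above all by less than 2-fold. GC content, length and look-alike transcripts came from GENCODE M21, promoters from RefSeq. GC content and length are those of the longest protein-coding transcript of a gene, or of its longest transcript where none is protein-coding. Of the list entries, 27 were not found under the symbols used. CPM limits cover counting error only.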

Additional observations from a re-analysis of the deposited data

Results flagged for a closer look

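In 23 of 180 groups of 4 libraries (90 members in each treatment), the highest or lowest library stood off from the rest by more than Dixon's 95% critical value. Chance flags about 1 in 20 independent groups, but these groups share the same 8 libraries, so 1 library can flag many and this rate is no yardstick. Vehicle replicate 4 was the flagged library in 21 of the 23, on the high side in 16 and on the low side in 5. Vehicle replicate 4 stood high for Ndufs7 (48.5 CPM), Ndufb7 (48.9 CPM), Ndufa13 (93.0 CPM), Ndufb8 (78.7 CPM), Ndufv3 (54.7 CPM), Uqcr11 (69.7 CPM), Uqcrq (32.1 CPM), Cox6a1 (91.2 CPM) and Atp5g2 (50.2 CPM), and for 7 further members (Ndufa11, Ndufs8, Ndufv1, Uqcr10, Cox5b, Atp5d and Atp5k). It stood low for Ndufs1 (86.0 CPM), Ndufs4 (53.8 CPM), Atp5h (143 CPM), mt-Co1 (9816 CPM) and Ndufaf1 (14.2 CPM). The same library stood low for the share of counts from mitochondrial members, at 2.504%. S1P replicate 7 stood high for Ndufaf4 at 30.3 CPM, and vehicle replicate 3 stood high for Cox7b at 118 CPM. Vehicle replicate 3 also stood low for the ratio of mt-Rnr1 to mt-Rnr2, at 0.331.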

How the results depend on the processing

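No paired analysis was possible because the S1P and vehicle libraries share no replicate number. Over 18 other settings, the 33 tested genes named by the rule gave 594 values, of which 555 stayed on their side of the threshold, 13 lost a call, 26 gained one and none that was called changed direction, and 18 of the 33 genes kept their sign in every setting. With scaling by library totals alone, 7 genes of the other lists were higher. DESeq2 called 6 nuclear members higher and 1 lower, 1 mitochondrial member lower, 12 list genes higher and 1 lower, and 804 of all genes lower. With 1 surrogate variable, 13 nuclear members were higher and 1 lower, 1 mitochondrial member lower, 30 list genes higher and 5 lower, 1471 of all genes higher and 1015 lower, and the median nuclear log2 fold change was 0.14. With the GC content and length offsets, which were added after the data had been seen, these were 5 and 1, 1 lower, 8 and 2, and 1036 and 785. The median log2 fold change with these offsets was 0.0059 for nuclear and -0.22 for mitochondrial members, so the nuclear median did not grow there. Ndufa4 was at 0.29 in that fit. Without vehicle replicate 4 and S1P replicate 5 together, the same counts were 6 and 1, 1 lower, 15 and 2, and 1178 and 934, with a median nuclear value of 0.15. Leaving out each library in turn, the count of nuclear members higher ran from 0 to 8 (8 without vehicle replicate 4, 1 without vehicle replicate 3, 0 without any of the other 6), of nuclear members lower was 0 throughout, and of mitochondrial members lower ran from 0 to 1. List genes higher ran from 0 to 16 and lower from 0 to 3, all genes higher from 333 to 1133 and lower from 101 to 723. The median ran from 0.0035 to 0.16 for nuclear and from -0.10 to 0.13 for mitochondrial members. The cause of these shifts was not tested.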
